A study of Mus musculus with 10 samples.

Results

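T cells read antigen through the T cell receptor (TCR), which has no enzyme of its own and signals through the CD3 chains bound to it. Src family kinases mark the CD3 chains, another kinase binds the marks, and scaffold proteins then bring phospholipase, Ras activators and NF-kB activators to the membrane. The same cells carry brakes at each step: phosphatases, inhibitory surface receptors, ubiquitin ligases and the kinases that remove diacylglycerol. The 38 genes described here were listed for these roles, as CD3 complex, kinase, adaptor and negative regulator genes of antigen receptor signalling. The rule lists them by role and not by a measured value, though the list was chosen with earlier results of these data known. Of the 38 listed genes, 37 had a named probe set among the 18193 genes tested, and 1 listed kinase is not analysed here. Where a gene has several probe sets, the one that was brightest on average was used, and 24 of the 37 genes have more than 1 probe set.

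The arrays asked how T cells change as they respond to B lymphoma cells that carry 2 proteins of Epstein-Barr virus. CD4+ TEM and CD8+ TEM cells (effector memory phenotype) and CD4+ memory cells (CM in their titles, read as central memory) were taken on day 25 of culture. Naïve CD4+ and naïve CD8+ cells served as their starting populations, with 2 arrays in each of the 5 groups. The naïve cells were sorted by surface TCRβ and CD62L, without CD44, from spleens of wild-type C57BL/6 mice. The cultured cells had been grown in IL-2 beside B lymphoma cells that carry LMP1 and LMP2A and had been γ-irradiated, with fresh lymphoma cells each week. The lymphoma line came from mice in which Cγ1-Cre, active in germinal center B cells, removes a stop cassette before LMP1 and LMP2A. All T cells were wild type, and neither a culture without lymphoma cells nor a CD8+ memory group is among the arrays. Culture, stimulation and the sorted phenotype therefore cannot be told apart in any comparison with naïve cells. The records of the samples do not say whether the 2 arrays of a group came from separate mice or cultures, so that a p-value here sets a difference against the spread of these arrays alone, which may be technical. Values are log2 intensities, where a difference of 1 is a doubling, and differences from naïve cells are cultured minus naïve. A gene is called where limma, fitted to all 18193 genes, gives an adjusted p under 0.05.

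The array medians lay between 4.65 and 4.75. Cd3d and Cd3e, which mark T cells, were bright on all 10 arrays, and Cd4 and Cd8b1 followed the labels in the naïve cells. In CD8+ TEM cells Cd4 read 6.51 and 6.89, against 4.30 and 4.10 in naïve CD8+ cells. Cd8a read 7.67 and 8.17 in CD4+ TEM cells, against 5.16 and 4.99 in naïve CD4+ cells (difference 2.85 (SE 0.41, adjusted p = 0.00126)), while Cd8b1 stayed between 4.94 and 5.63 there. B cell markers moved in both directions. Of 13 measured B cell markers, 5 were called higher and 1 lower in CD4+ TEM, 5 higher and 3 lower in CD8+ TEM, and 7 higher and 1 lower in CD4+ memory cells, where 16.4% (CD4+ TEM), 20.9% (CD8+ TEM) and 13.5% (CD4+ memory) of all genes were called higher. Their summed level on the linear scale was 3163 to 3268 in CD4+ TEM, 3777 to 5568 in CD4+ memory, 2717 to 2847 in naïve CD4+, 3393 to 3814 in CD8+ TEM and 3954 to 7182 in naïve CD8+ cells. Ighm, the brightest of these markers on every naïve array, makes up most of the naïve sums. It read 11.30 to 12.60 on the naïve arrays and 9.32 to 10.95 on the cultured arrays. The sums therefore do not show how the other markers moved. Ebf1, a B lineage transcription factor, read 10.19 to 10.82 in the cultured groups and at most 5.56 in the naïve groups, while Pax5, Cr2 and Fcer2a were at or below 4.65 on all arrays. Of all genes, 10.1% (CD4+ TEM), 17.2% (CD8+ TEM) and 9.78% (CD4+ memory) were called lower. Of 10 myeloid markers, 2 were called higher and 2 lower in each cultured group (20% each way), and of 6 NK cell markers 1 was called lower in each (16.7%). S100a8 and S100a9 read 7.34 to 10.75 on the naïve arrays and 3.41 to 4.68 on the cultured arrays. The summed myeloid level was 635.8 to 1796 in naïve CD4+ and 851.8 to 3137 in naïve CD8+ cells. It was 363.2 to 393 in CD4+ TEM, 278.7 to 441.2 in CD4+ memory and 420 to 436 in CD8+ TEM cells. The 2 controls of RNA quality did not move alike: for Gapdh, 3' minus 5' signal was 0.91 to 1.72 in the cultured groups and 2.42 to 2.75 in the naïve groups. For Actb it was 1.48 to 1.49 in CD4+ TEM, 1.59 to 2.104 in CD4+ memory, 1.24 to 1.46 in naïve CD4+, 0.77 to 0.84 in CD8+ TEM and 1.73 to 2.13 in naïve CD8+ cells. The table holds no detection calls, and a value at or near the array medians may be background, so a difference from such a level may understate the change and is no exact fold. Naïve CD8+ replicate 2 stood apart from replicate 1 in immediate early genes, with Fos at 7.09 against 13.06. What part these differences have in the results below was not tested. In sorted populations of this kind, fewer cells of a type and less RNA per cell cannot be told apart.

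Of the 37 TCR signalling genes, 78.4% were called lower in CD8+ TEM, 51.4% in CD4+ TEM and 37.8% in CD4+ memory cells. In CD4+ TEM cells 19 of 37 genes were called lower, against 10.1% of all genes, and 2 were called higher, against 16.4%. In CD8+ TEM cells 29 of 37 were called lower, against 17.2% of all genes, and 1 was called higher, against 20.9%. CD4+ memory cells had 14 called lower, against 9.78% of all genes, and 2 called higher, against 13.5%. With the mean of probe sets, 16 genes were called lower in CD4+ TEM and 16 in CD4+ memory cells. In the direct test given below, none of the 37 was called lower in CD4+ TEM than in CD4+ memory cells. The median difference over the 37 genes was -0.55 in CD4+ TEM, -1.07 in CD8+ TEM and -0.37 in CD4+ memory cells, beside 0.02 for CD4+ TEM, 0.06 for CD8+ TEM and 0.08 for CD4+ memory cells over all genes. A fall of at least 2-fold was called for 10 genes in CD4+ TEM and 21 in CD8+ TEM cells. The share of all genes at this limit was not counted, so these 2 counts have no background beside them. The members are brighter than most genes, and calls are more frequent among bright genes. Among the 8262 genes with a mean of at least 6.48, the level of the dimmest member, 17.3% were called lower in CD4+ TEM, 28.6% in CD8+ TEM and 17.2% in CD4+ memory cells. Without naïve CD8+ replicate 2, the array that stood apart, 28 genes were called lower in CD8+ TEM cells and 1 higher.

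All 19 genes called lower in CD4+ TEM cells were also called lower in CD8+ TEM cells, which is 100% of the CD4+ calls and 65.5% of the 29 CD8+ calls. Over all genes, 1248 were called lower in both, which is 67.8% of the CD4+ calls and 40% of the CD8+ calls, and among genes at least as bright as the dimmest member the shares were 71.2% and 43%. These 2 comparisons share no array, though they share the estimate of the spread. The 19 are Cd247, Fyn, Txk, Prkcq, Lat, Lcp2, Vav1, Sos1, Nfatc1, Nfatc3, Ptprc, Cd5, Cd6, Sla, Sit1, Pag1, Cblb, Dgka and Dgkz. Themis was the 1 gene called higher in both. Cd3d, Cd3e, Cd3g, Csk and Bcl10 were called in none of the 7 comparisons that were fitted. Csk and Bcl10 were nevertheless lower in CD4+ TEM cells at unadjusted p values of 0.0376 for Csk and 0.0422 for Bcl10 (limma).

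**Figure D1:**
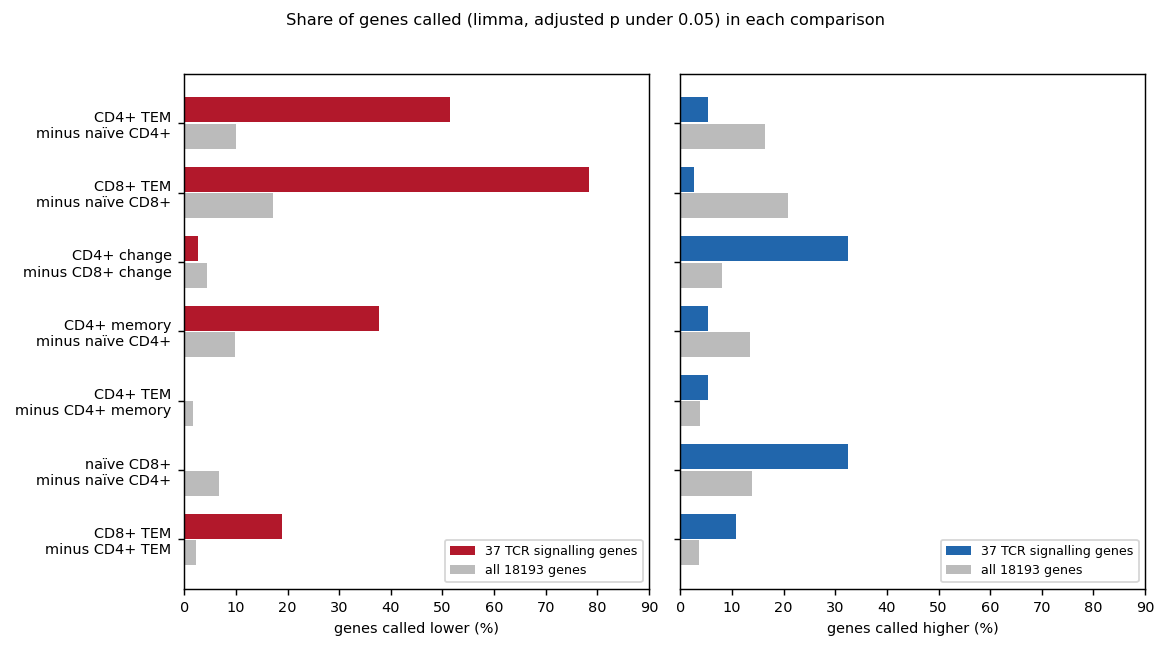
Share of the 37 TCR signalling genes (coloured bars) and of all 18193 genes (grey bars) called lower (left) or higher (right) in each of the 7 comparisons, in percent of the genes tested. In CD8+ TEM cells 78.4% of the TCR signalling genes were called lower, and in CD4+ TEM cells 51.4%.

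**Figure D2:**
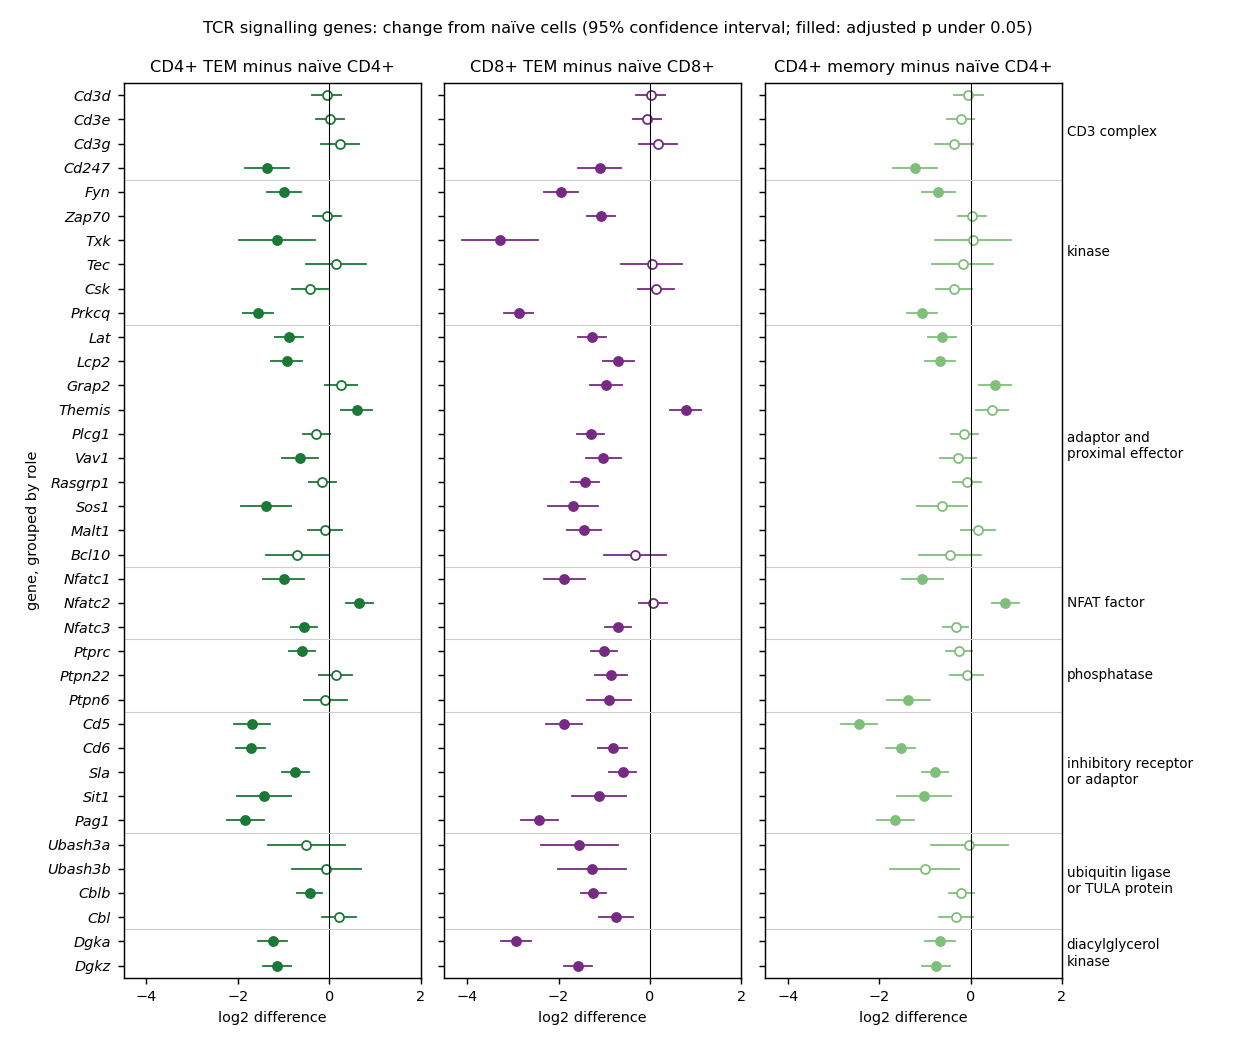
Log2 difference of each TCR signalling gene from naïve cells (points, with 95% confidence intervals from the fit) in CD4+ TEM, CD8+ TEM and CD4+ memory cells, with genes grouped by role and filled points where the gene was called. The inhibitory and diacylglycerol kinase rows lie left of 0 in all 3 panels, while Cd3d, Cd3e and Cd3g lie near 0.

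Promoter sequence is shown for 4 genes that mark the extremes of this pattern: Txk and Prkcq, with the largest mean fall over both TEM comparisons among the genes with a listed promoter that fell in both, Themis, which rose in both, and Cd3d, which was never called. Each is the 250 bases before the most upstream RefSeq start in build GRCm38.p6, read 5′ to 3′ on the strand of the gene. Capitals mark matches, on either strand, to 5 short motifs of factor families known from T cells: GGAAGT for ETS, GGAAAA for NFAT, TGTGGT for RUNX, CTTTGAT for TCF/LEF and GTAAACA for FOXO. No match overlapped another.
Txk (chr5:72752778-72753027, minus strand): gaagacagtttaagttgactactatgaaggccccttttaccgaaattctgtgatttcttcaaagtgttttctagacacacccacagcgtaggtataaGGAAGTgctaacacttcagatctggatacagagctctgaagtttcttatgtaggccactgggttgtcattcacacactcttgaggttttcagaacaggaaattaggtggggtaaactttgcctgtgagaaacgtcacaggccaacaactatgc
Prkcq (chr2:11172132-11172381, plus strand): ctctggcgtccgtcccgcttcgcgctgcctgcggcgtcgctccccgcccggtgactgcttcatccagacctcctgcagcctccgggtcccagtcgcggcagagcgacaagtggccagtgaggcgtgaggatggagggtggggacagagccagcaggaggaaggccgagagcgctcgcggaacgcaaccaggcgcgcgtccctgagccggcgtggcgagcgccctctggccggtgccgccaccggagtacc
Themis (chr10:28668110-28668359, plus strand): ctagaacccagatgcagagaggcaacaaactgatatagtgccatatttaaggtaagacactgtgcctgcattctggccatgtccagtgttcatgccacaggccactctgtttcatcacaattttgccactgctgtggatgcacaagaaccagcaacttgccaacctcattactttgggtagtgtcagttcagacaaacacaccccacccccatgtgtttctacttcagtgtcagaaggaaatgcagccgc
Cd3d (chr9:44981536-44981785, plus strand): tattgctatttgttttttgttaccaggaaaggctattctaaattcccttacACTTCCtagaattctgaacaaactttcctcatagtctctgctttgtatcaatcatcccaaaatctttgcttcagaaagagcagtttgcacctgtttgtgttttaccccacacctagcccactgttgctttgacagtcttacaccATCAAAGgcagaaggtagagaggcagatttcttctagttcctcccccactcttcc

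Txk held 1 ETS match, Cd3d held 1 ETS and 1 TCF/LEF match, and Prkcq and Themis held none of the 5 motifs in this window. RefSeq promoters were listed for 32 of the 37 genes. The ETS motif stood in 13 of these 32 (40.6%), in 7 of the 15 that fell in both TEM comparisons (46.7%) and in 19.9% of 27025 promoters of the same length. The NFAT motif stood in 8 of 32 (25%), in 4 of the 15 (26.7%) and in 20.7% of all promoters. RUNX, TCF/LEF and FOXO matches stood in 1, 2 and 3 of the 32 promoters, and in 14.2%, 3.26% and 3.06% of all promoters. These are matches of letters and were not tested as binding sites.

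The counts by role that follow rest on 2 to 10 genes each and stand beside 10.1% of all genes called lower in CD4+ TEM and 17.2% in CD8+ TEM cells. Among the CD3 chains, 3 of 4 were not called in either TEM comparison and the ζ chain was called lower. Cd3d, Cd3e and Cd3g encode the δ, ε and γ chains that pair with the receptor. Cd3e read 13.28 and 13.17 in CD4+ TEM, 12.92 and 13.06 in CD4+ memory, 13.14 and 13.29 in naïve CD4+, 12.78 and 12.72 in CD8+ TEM, and 12.83 and 12.80 in naïve CD8+ cells. Its difference was 0.01 (SE 0.13, adjusted p = 0.96) in CD4+ TEM cells and -0.06 (SE 0.13, adjusted p = 0.793) in CD8+ TEM cells, with 95% intervals of -0.29 to 0.32 in CD4+ TEM and -0.36 to 0.24 in CD8+ TEM cells. For Cd3d the intervals were -0.37 to 0.27 in CD4+ TEM and -0.30 to 0.33 in CD8+ TEM cells, and for Cd3g -0.18 to 0.66 in CD4+ TEM and -0.24 to 0.60 in CD8+ TEM cells. A fall of 2-fold lies outside all 6. At an unadjusted p under 0.05 none of these 3 genes differed in a TEM comparison with naïve cells. Cd247 encodes the ζ chain, which carries most of the phosphorylation motifs of the complex. Cd247 read 9.45 and 9.16 in CD4+ TEM, 9.24 and 9.66 in CD4+ memory, 10.72 and 10.61 in naïve CD4+, 9.01 and 9.36 in CD8+ TEM, and 10.16 and 10.41 in naïve CD8+ cells. Every cultured array lay below every naïve array of its subset. The difference was -1.36 (SE 0.21, adjusted p = 0.00171) in CD4+ TEM, -1.10 (SE 0.21, adjusted p = 0.00312) in CD8+ TEM and -1.22 (SE 0.21, adjusted p = 0.00381) in CD4+ memory cells. The probe sets of Cd247 disagreed. A second probe set, dimmer on average, differed by 0.49 in CD4+ TEM, -0.03 in CD8+ TEM and 1.13 in CD4+ memory cells, while the other 2 fell in all 3, and with the mean of the probe sets the memory difference was -0.72.

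Among the kinases, Txk and Prkcq fell most in CD8+ TEM cells. Fyn, a Src family kinase, was lower in both TEM groups, as were Txk, a Tec family kinase, and Prkcq, which encodes protein kinase C θ on the NF-kB arm. Prkcq read 10.13 and 10.16 in CD4+ TEM, 10.71 and 10.57 in CD4+ memory, 11.61 and 11.81 in naïve CD4+, 9.82 and 9.78 in CD8+ TEM, and 12.76 and 12.58 in naïve CD8+ cells. The TEM arrays lay below all memory and naïve arrays of their subset, and the naïve CD8+ arrays were the highest of the 10. Prkcq differed by -1.56 (SE 0.14, adjusted p = 9.93e-05) in CD4+ TEM and by -2.87 (SE 0.14, adjusted p = 3.08e-06) in CD8+ TEM cells, which is 2.95-fold lower in CD4+ TEM and 7.31-fold lower in CD8+ TEM cells. Txk read 5.44 and 6.46 in CD4+ TEM, 7.35 and 6.96 in CD4+ memory, 7.22 and 6.98 in naïve CD4+, 4.40 and 4.53 in CD8+ TEM, and 7.36 and 8.13 in naïve CD8+ cells. CD8+ TEM cells were low on both arrays, whereas the CD4+ TEM arrays differed 2-fold from each other. The CD8+ TEM level lay below the array medians, so the fall of Txk there has no exact size. The difference was -3.28 (SE 0.36, adjusted p = 0.000188) in CD8+ TEM cells and -1.15 (SE 0.36, adjusted p = 0.0492) in CD4+ TEM cells. The CD4+ call did not hold without any 1 of 7 arrays (adjusted p = 0.0535 to 0.263: CD4+ TEM replicate 1 and either CD4+ memory, naïve CD4+ or CD8+ TEM array), and the difference was -0.64 without CD4+ TEM replicate 1.

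Fyn read 10.48 and 10.66 in CD4+ TEM, 10.79 and 10.92 in CD4+ memory, 11.61 and 11.52 in naïve CD4+, 9.81 and 9.46 in CD8+ TEM, and 11.62 and 11.54 in naïve CD8+ cells. Both TEM groups lay below their naïve cells with no overlap, and the difference was -0.99 (SE 0.16, adjusted p = 0.00231) in CD4+ and -1.95 (SE 0.16, adjusted p = 3.73e-05) in CD8+ cells. Zap70, the kinase that binds phosphorylated CD3 chains, read 9.88 and 9.83 in CD4+ TEM, 9.96 and 9.94 in CD4+ memory, 9.89 and 9.93 in naïve CD4+, 9.20 and 9.38 in CD8+ TEM, and 10.28 and 10.44 in naïve CD8+ cells. It was lower in CD8+ TEM cells, with a difference of -1.07 (SE 0.13, adjusted p = 0.000365), and differed by -0.06 (SE 0.13, adjusted p = 0.818) in CD4+ TEM cells. The Zap70 probe sets disagreed: the probe set used is marked as cross-hybridising, a second of similar brightness differed by -0.12 in CD8+ TEM cells (adjusted p = 0.709 when it stands for the gene) and another, dim one fell by 2.43. Tec, of the same family as Txk, read 7.68 and 7.52 in CD4+ TEM, 7.48 and 7.07 in CD4+ memory, 7.64 and 7.26 in naïve CD4+, 9.20 and 8.73 in CD8+ TEM, and 8.56 and 9.29 in naïve CD8+ cells. Its levels split by subset and not by state, and neither TEM comparison was called, with 0.15 (SE 0.29, adjusted p = 0.782) in CD4+ and 0.04 (SE 0.29, adjusted p = 0.943) in CD8+ cells. Csk, which switches off Src family kinases, was not called either (-0.42 in CD4+ TEM and 0.13 in CD8+ TEM cells).

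Of 10 adaptors and proximal effectors, 4 were called lower and 1 higher in CD4+ TEM cells, against 8 lower and 1 higher in CD8+ TEM cells, beside 10.1% and 17.2% of all genes called lower. Lat is the membrane scaffold on which the signal assembles. Lat read 10.90 and 10.93 in CD4+ TEM, 11.28 and 11.07 in CD4+ memory, 11.76 and 11.84 in naïve CD4+, 11.01 and 11.06 in CD8+ TEM, and 12.25 and 12.36 in naïve CD8+ cells. All TEM arrays lay below their naïve arrays, and the difference was -0.89 (SE 0.13, adjusted p = 0.00175) in CD4+ and -1.27 (SE 0.13, adjusted p = 0.000149) in CD8+ cells. Lcp2, the SLP-76 adaptor, differed by -0.93 (SE 0.15, adjusted p = 0.00207) in CD4+ TEM and -0.70 (SE 0.15, adjusted p = 0.00572) in CD8+ TEM cells. The CD8+ call of Lcp2 did not hold without CD8+ TEM replicate 2 (adjusted p = 0.0507) or with the mean of its probe sets (-0.31, adjusted p = 0.178). Grap2, which ties SLP-76 to Lat, read 7.07 and 7.07 in CD4+ TEM, 7.44 and 7.24 in CD4+ memory, 6.90 and 6.71 in naïve CD4+, 7.08 and 7.17 in CD8+ TEM, and 7.95 and 8.20 in naïve CD8+ cells. Its naïve CD8+ arrays stood above the rest, and it fell by 0.95 (SE 0.15, adjusted p = 0.0013) in CD8+ TEM cells and differed by 0.27 (SE 0.15, adjusted p = 0.258) in CD4+ TEM cells.

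Further along, Plcg1, Rasgrp1 and Malt1 were called lower in CD8+ TEM but not in CD4+ TEM cells. Plcg1 encodes phospholipase C γ, which makes the diacylglycerol and calcium signals. Plcg1 read 11.61 and 11.45 in CD4+ TEM, 11.64 and 11.69 in CD4+ memory, 11.85 and 11.76 in naïve CD4+, 11.25 and 11.19 in CD8+ TEM, and 12.53 and 12.50 in naïve CD8+ cells. CD8+ TEM cells were lowest and naïve CD8+ cells highest, a difference of -1.29 (SE 0.13, adjusted p = 0.000103), beside -0.28 (SE 0.13, adjusted p = 0.159) in CD4+ TEM cells. Rasgrp1, a Ras activator that binds diacylglycerol, read 12.14 and 12.19 in CD4+ TEM, 12.22 and 12.21 in CD4+ memory, 12.34 and 12.28 in naïve CD4+, 11.21 and 11.12 in CD8+ TEM, and 12.69 and 12.48 in naïve CD8+ cells. It differed by -1.42 (SE 0.13, adjusted p = 7.6e-05) in CD8+ TEM cells and by -0.15 (SE 0.13, adjusted p = 0.5) in CD4+ TEM cells. Malt1, a scaffold and protease of the NF-kB arm, read 9.89 and 10.25 in CD4+ TEM, 10.45 and 10.22 in CD4+ memory, 10.18 and 10.17 in naïve CD4+, 8.59 and 8.45 in CD8+ TEM, and 9.95 and 9.98 in naïve CD8+ cells. The CD8+ TEM arrays stood below the other 8, with a difference of -1.45 (SE 0.16, adjusted p = 0.000208), beside -0.10 (SE 0.16, adjusted p = 0.738) in CD4+ TEM cells. Its partner Bcl10 was not called (-0.71 (SE 0.29, adjusted p = 0.1215) in CD4+ TEM and -0.32 in CD8+ TEM cells). However, its arrays did not overlap in CD4+ cells, at 10.62 and 10.68 in TEM and 11.37 and 11.35 in naïve cells. The naïve CD8+ arrays, which enter the SE, were far apart at 11.68 and 10.61. The Bcl10 probe set used is marked as cross-hybridising.

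Sos1, the other Ras activator, read 8.46 and 8.84 in CD4+ TEM, 9.23 and 9.60 in CD4+ memory, 9.87 and 10.21 in naïve CD4+, 9.10 and 8.63 in CD8+ TEM, and 10.66 and 10.44 in naïve CD8+ cells. It was lower in both TEM groups, with differences of -1.39 (SE 0.24, adjusted p = 0.00319) in CD4+ and -1.68 (SE 0.24, adjusted p = 0.000699) in CD8+ cells, but with the mean of its probe sets the CD4+ call did not hold (-0.58, adjusted p = 0.062). Vav1, a binding partner of SLP-76, read 8.64 and 9.05 in CD4+ TEM, 9.12 and 9.29 in CD4+ memory, 9.44 and 9.53 in naïve CD4+, 8.93 and 9.05 in CD8+ TEM, and 9.98 and 10.03 in naïve CD8+ cells. TEM and naïve arrays did not overlap, with differences of -0.64 (SE 0.17, adjusted p = 0.0237) in CD4+ and -1.02 (SE 0.17, adjusted p = 0.00159) in CD8+ TEM cells. The CD4+ call of Vav1 did not hold without CD4+ TEM replicate 1 or either naïve CD4+ array (adjusted p = 0.0751 to 0.143). Themis, an adaptor known from positive selection in the thymus, went the other way. Themis read 12.35 and 12.46 in CD4+ TEM, 12.31 and 12.22 in CD4+ memory, 11.78 and 11.83 in naïve CD4+, 12.62 and 12.59 in CD8+ TEM, and 11.66 and 11.996 in naïve CD8+ cells. Every cultured array lay above every naïve array, and the difference was 0.60 (SE 0.15, adjusted p = 0.0187) in CD4+ TEM and 0.78 (SE 0.15, adjusted p = 0.00353) in CD8+ TEM cells. The CD4+ rise was not called without any 1 of the 4 arrays compared (adjusted p = 0.0569 to 0.0991) or with the mean of the 4 probe sets (0.38, adjusted p = 0.171), and the dimmest Themis probe set fell by 0.73 in CD8+ TEM cells.

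The 3 NFAT genes, whose products enter the nucleus when calcineurin is active, moved in different directions. Nfatc1 read 9.30 and 9.45 in CD4+ TEM, 9.58 and 9.05 in CD4+ memory, 10.40 and 10.35 in naïve CD4+, 8.998 and 8.87 in CD8+ TEM, and 10.68 and 10.93 in naïve CD8+ cells. Every cultured array was below every naïve array, and the difference was -0.997 (SE 0.20, adjusted p = 0.00644) in CD4+ TEM, -1.87 (SE 0.20, adjusted p = 0.000145) in CD8+ TEM and -1.06 (SE 0.20, adjusted p = 0.00575) in CD4+ memory cells. Nfatc2 was higher in CD4+ TEM cells, by 0.66 (SE 0.13, adjusted p = 0.00651), and in CD4+ memory cells, by 0.76 (SE 0.13, adjusted p = 0.00405), and differed by 0.07 (SE 0.13, adjusted p = 0.746) in CD8+ TEM cells. Nfatc3 was lower in both TEM groups, with differences of -0.55 (SE 0.12, adjusted p = 0.0116) in CD4+ and -0.69 (SE 0.12, adjusted p = 0.00224) in CD8+ cells. With the mean of all probe sets the CD4+ TEM differences of Nfatc1 and Nfatc2 were not called (-0.25, adjusted p = 0.54, and 0.17, adjusted p = 0.423), nor were those in CD4+ memory cells (-0.60, adjusted p = 0.125, and 0.30, adjusted p = 0.152). Without CD4+ TEM replicate 1 the Nfatc2 call was lost at adjusted p = 0.0503, and without any 1 of the 4 arrays compared that of Nfatc3 in CD4+ TEM cells at adjusted p = 0.0542 to 0.0598.

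Phosphatases were lower in CD8+ TEM cells, 3 of 3, where 17.2% of all genes were, and 1 of 3 was lower in CD4+ TEM cells, where 10.1% were. Ptprc, the CD45 phosphatase that keeps Src family kinases ready, read 12.14 and 12.22 in CD4+ TEM, 12.50 and 12.53 in CD4+ memory, 12.76 and 12.80 in naïve CD4+, 11.89 and 11.85 in CD8+ TEM, and 12.93 and 12.82 in naïve CD8+ cells. It was lower in both TEM groups, with differences of -0.60 (SE 0.12, adjusted p = 0.0081) in CD4+ TEM and -1.002 (SE 0.12, adjusted p = 0.000332) in CD8+ TEM cells, and its second probe set fell further, by 1.59 in CD4+ TEM and 2.13 in CD8+ TEM cells. The CD4+ call of Ptprc did not hold without CD4+ TEM replicate 1 or naïve CD4+ replicate 2 (adjusted p = 0.0508 to 0.0539). Ptpn22, which acts on Src family kinases and Zap70, read 11.10 and 10.97 in CD4+ TEM, 10.97 and 10.64 in CD4+ memory, 10.92 and 10.86 in naïve CD4+, 11.34 and 11.46 in CD8+ TEM, and 12.33 and 12.17 in naïve CD8+ cells. Naïve CD8+ cells had the highest values, and the difference was -0.85 (SE 0.16, adjusted p = 0.00287) in CD8+ TEM and 0.15 (SE 0.16, adjusted p = 0.577) in CD4+ TEM cells. Ptpn6, the SHP-1 phosphatase, read 9.17 and 9.31 in CD4+ TEM, 8.12 and 7.80 in CD4+ memory, 9.15 and 9.51 in naïve CD4+, 9.06 and 9.21 in CD8+ TEM, and 9.82 and 10.25 in naïve CD8+ cells. The CD4+ memory arrays were the lowest of all. Ptpn6 differed by -0.90 (SE 0.21, adjusted p = 0.0089) in CD8+ TEM cells and by -0.09 (SE 0.21, adjusted p = 0.821) in CD4+ TEM cells, and the CD8+ call did not hold without CD8+ TEM replicate 1 or naïve CD8+ replicate 2 (adjusted p = 0.0529 to 0.061).

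All 5 inhibitory receptors and adaptors were called lower in CD4+ TEM, CD8+ TEM and CD4+ memory cells, with medians of -1.68 in CD4+ TEM, -1.11 in CD8+ TEM and -1.53 in memory cells, while 10.1% (CD4+ TEM), 17.2% (CD8+ TEM) and 9.78% (CD4+ memory) of all genes were called lower. In memory cells 3 of the 5 calls did not hold throughout: with the mean of probe sets Pag1 gave -0.95, adjusted p = 0.0531 and Sla gave -0.33, adjusted p = 0.3, and the call of Sit1 was lost without CD4+ memory replicate 2 or either naïve CD4+ array (adjusted p = 0.0711 to 0.119). Cd5 and Cd6 encode related surface receptors that dampen TCR signals. Cd5 read 8.36 and 8.23 in CD4+ TEM, 7.60 and 7.47 in CD4+ memory, 9.90 and 10.07 in naïve CD4+, 7.59 and 7.57 in CD8+ TEM, and 9.25 and 9.68 in naïve CD8+ cells. The cultured groups lay below the naïve groups without overlap, and the difference was -1.68 (SE 0.17, adjusted p = 0.0002) in CD4+ TEM, -1.88 (SE 0.17, adjusted p = 6.74e-05) in CD8+ TEM and -2.45 (SE 0.17, adjusted p = 3.76e-05) in CD4+ memory cells. Cd6 read 8.99 and 8.94 in CD4+ TEM, 9.18 and 9.11 in CD4+ memory, 10.66 and 10.70 in naïve CD4+, 9.83 and 9.69 in CD8+ TEM, and 10.47 and 10.69 in naïve CD8+ cells. Here the CD4+ cells moved more, with -1.72 (SE 0.14, adjusted p = 5.26e-05) in CD4+ TEM against -0.82 (SE 0.14, adjusted p = 0.00175) in CD8+ TEM cells. Pag1 encodes the membrane adaptor that recruits Csk. Pag1 read 9.47 and 9.61 in CD4+ TEM, 9.84 and 9.62 in CD4+ memory, 11.42 and 11.33 in naïve CD4+, 9.26 and 8.82 in CD8+ TEM, and 11.43 and 11.48 in naïve CD8+ cells. No naïve array was below 11.33 and no cultured array above 9.84, and the difference was -1.83 (SE 0.18, adjusted p = 0.000148) in CD4+ TEM, -2.42 (SE 0.18, adjusted p = 2.14e-05) in CD8+ TEM and -1.65 (SE 0.18, adjusted p = 0.000349) in CD4+ memory cells.

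Sit1, a transmembrane adaptor with an inhibitory motif, read 7.88 and 7.96 in CD4+ TEM, 8.59 and 8.04 in CD4+ memory, 9.25 and 9.43 in naïve CD4+, 7.43 and 7.52 in CD8+ TEM, and 8.25 and 8.93 in naïve CD8+ cells. It was lower in both TEM groups, with differences of -1.42 (SE 0.26, adjusted p = 0.0042) in CD4+ TEM and -1.11 (SE 0.26, adjusted p = 0.00906) in CD8+ TEM cells, and the CD8+ call did not hold without CD8+ TEM replicate 1 (adjusted p = 0.0544). Sla, the adaptor SLAP, which lowers the amount of receptor at the surface, fell less, with -0.74 (SE 0.13, adjusted p = 0.00328) in CD4+ TEM and -0.60 (SE 0.13, adjusted p = 0.00593) in CD8+ TEM cells. The 3 dimmer probe sets of Sla did not move alike, and with the mean of the 4 the differences were -0.60, adjusted p = 0.0589 in CD4+ TEM and -0.13, adjusted p = 0.676 in CD8+ TEM cells.

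The ubiquitin ligase and TULA genes were lower in CD8+ TEM cells, 4 of 4, where 17.2% of all genes were, and 1 of 4 was lower in CD4+ TEM cells, where 10.1% were. Cblb, a ligase that restrains T cells lacking costimulation, read 11.12 and 11.17 in CD4+ TEM, 11.35 and 11.38 in CD4+ memory, 11.56 and 11.59 in naïve CD4+, 10.33 and 10.41 in CD8+ TEM, and 11.62 and 11.60 in naïve CD8+ cells. The CD8+ TEM arrays were the lowest, and the difference was -1.24 (SE 0.12, adjusted p = 9.46e-05) there and -0.43 (SE 0.12, adjusted p = 0.0309) in CD4+ TEM cells, a call that was lost without any CD4+ TEM, naïve CD4+ or CD8+ TEM array (adjusted p = 0.0585 to 0.132). Cbl, its relative, differed by -0.75 (SE 0.16, adjusted p = 0.00648) in CD8+ TEM and 0.21 (SE 0.16, adjusted p = 0.408) in CD4+ TEM cells. Ubash3a and Ubash3b encode the TULA proteins, which act against Zap70 and related kinases. Ubash3a read 8.59 and 8.81 in CD4+ TEM, 9.09 and 9.25 in CD4+ memory, 9.28 and 9.11 in naïve CD4+, 7.06 and 6.99 in CD8+ TEM, and 7.90 and 9.24 in naïve CD8+ cells. The naïve CD8+ arrays were 1.34 apart, the widest gap of any member within a group. Ubash3a differed by -1.54 (SE 0.36, adjusted p = 0.0102) in CD8+ TEM cells, or by -0.87 without naïve CD8+ replicate 2, and the call was lost without CD8+ TEM replicate 2 (adjusted p = 0.0559). Ubash3b read 8.21 and 8.47 in CD4+ TEM, 7.58 and 7.22 in CD4+ memory, 8.59 and 8.21 in naïve CD4+, 7.32 and 6.27 in CD8+ TEM, and 7.97 and 8.16 in naïve CD8+ cells. The CD8+ TEM arrays of Ubash3b were 1.05 apart, and its difference of -1.27 (SE 0.33, adjusted p = 0.0152) was not called without CD8+ TEM replicate 2 (-0.75) or naïve CD8+ replicate 2 (adjusted p = 0.0732 to 0.0766).

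Both diacylglycerol kinase genes, whose products remove the lipid that activates Rasgrp1 and protein kinase C, were lower in all 3 cultured groups. Dgka read 11.08 and 11.17 in CD4+ TEM, 11.77 and 11.60 in CD4+ memory, 12.47 and 12.25 in naïve CD4+, 10.27 and 10.31 in CD8+ TEM, and 13.21 and 13.23 in naïve CD8+ cells. The order was the same within each subset, cultured below naïve, and the naïve CD8+ arrays were highest. Dgka differed by -2.93 (SE 0.14, adjusted p = 2.84e-06) in CD8+ TEM cells, a 7.6-fold fall, by -1.24 (SE 0.14, adjusted p = 0.000366) in CD4+ TEM and by -0.68 (SE 0.14, adjusted p = 0.00991) in CD4+ memory cells. Dgkz read 9.78 and 9.91 in CD4+ TEM, 10.32 and 10.12 in CD4+ memory, 10.96 and 10.996 in naïve CD4+, 10.44 and 10.51 in CD8+ TEM, and 12.07 and 12.03 in naïve CD8+ cells. Its difference was -1.58 (SE 0.13, adjusted p = 4.29e-05) in CD8+ TEM, -1.13 (SE 0.13, adjusted p = 0.000425) in CD4+ TEM and -0.76 (SE 0.13, adjusted p = 0.00437) in CD4+ memory cells. The call of Dgka in memory cells was lost without naïve CD4+ replicate 1 (adjusted p = 0.0707).

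**Figure D3:**
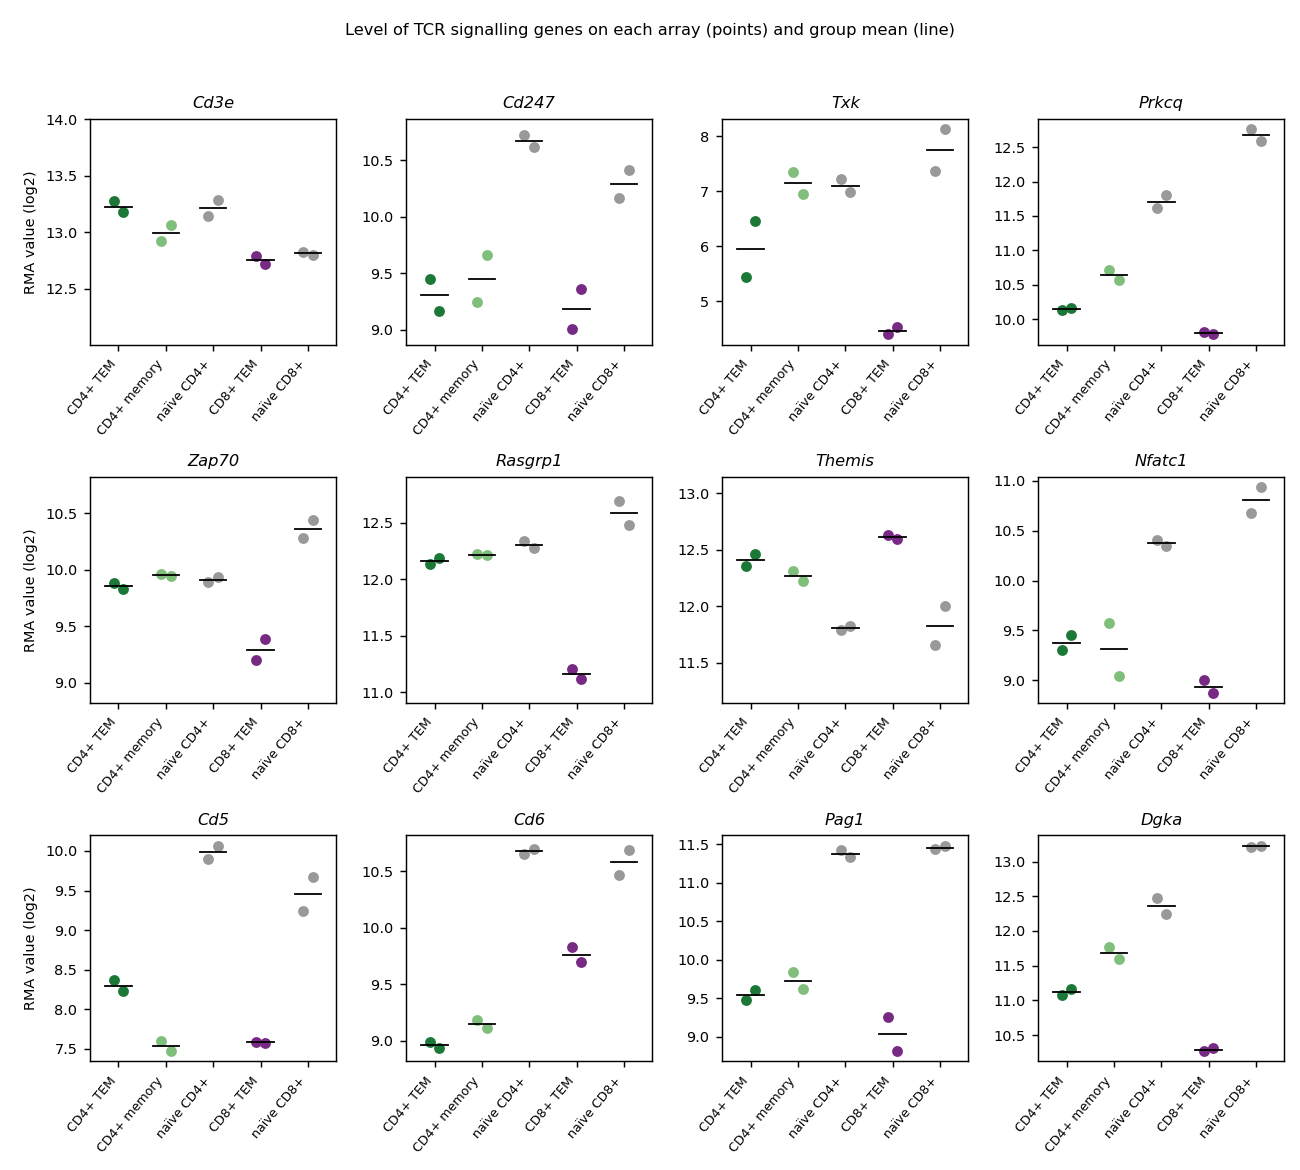
Level of 12 TCR signalling genes (RMA values, log2) on each of the 10 arrays (points) with the group mean (line), for CD4+ TEM, CD4+ memory, naïve CD4+, CD8+ TEM and naïve CD8+ cells; each panel has its own scale of at least 2 log2 units. Cd3e stays between 12.72 and 13.29 on all arrays, Dgka and Pag1 are lower on all cultured arrays than on any naïve array, and Themis is higher.

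Whether the change differed between subsets was tested as the CD4+ change minus the CD8+ change. It was called for 13 of 37 genes. In 12 it was positive, against 8.03% of all genes, and in 1 it was negative, against 4.49%. Among the 8262 genes at least as bright as the dimmest member, the shares were 13.8% positive and 6.79% negative. The 12 were Txk (2.13), Dgka (1.69), Malt1 (1.35), Prkcq (1.31), Rasgrp1 (1.27), Grap2 (1.22), Plcg1 (1.01), Zap70 (1.01), Ptpn22 (0.999), Cbl (0.96), Fyn (0.96) and Cblb (0.81), with adjusted p values of 0.00227 for Dgka to 0.0323 for Txk. In each of them the CD8+ difference was the more negative, and Grap2, Ptpn22 and Cbl had positive differences in CD4+ TEM cells that were not called. The levels of both naïve groups enter these values as much as those of the TEM groups. Cd6 was the 1 in which CD4+ cells fell further (-0.90 (SE 0.19, adjusted p = 0.0213)). Among the genes that were not called, the 95% interval, which is not adjusted, ran from 0.23 to 1.51 for Nfatc1, 0.14 to 1.48 for Ptpn6 and 0.14 to 2.27 for Ubash3b. The count of 13 dropped without any 1 of the CD4+ TEM, naïve CD4+ or CD8+ TEM arrays, and so did the number of all genes called.

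The naïve subsets, whose levels enter the difference between the changes, differed from each other before culture. Naïve CD8+ cells had 12 of 37 genes called higher than naïve CD4+ cells, against 13.9% of all genes, and 0 lower, against 6.65%, while at an unadjusted p under 0.05 limma gave 14 higher and 3 lower. No share of all genes was counted at the unadjusted limit. Among the 8262 genes at least as bright as the dimmest member, 23.4% were called higher and 12.1% lower. The median difference was 0.10 over those genes and 0.095 over the 37. Tec (1.47 (SE 0.29, adjusted p = 0.00867)), Ptpn22 (1.36 (SE 0.16, adjusted p = 0.000867)), Grap2 (1.28 (SE 0.15, adjusted p = 0.000973)) and Dgkz (1.07 (SE 0.13, adjusted p = 0.00114)) differed by at least 2-fold. Prkcq, Dgka, Plcg1, Ptpn6, Cbl, Lcp2, Lat and Zap70 were higher by 0.45 to 0.96. Of these genes, Ptpn22, Grap2, Prkcq, Dgka, Plcg1, Cbl and Zap70 were also called for the difference between the changes. For Grap2 the TEM means were close (7.07 in CD4+ and 7.12 in CD8+ cells), while the naïve means were 6.80 and 8.08. The Zap70 call was lost on leaving out any 1 array, and those of Lat, Ptpn6, Cbl, Lcp2 and Tec without at least 1 of the arrays. Without either naïve CD4+ array the count of 12 dropped, and so did the number of all genes called. Without naïve CD8+ replicate 2 there were 9 higher and 3 lower.

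Among the TEM cells themselves, CD8+ TEM cells had 7 genes called lower than CD4+ TEM cells, against 2.19% of all genes, and 4 higher, against 3.53%. For the 8262 genes at least as bright as the dimmest member, the shares were 3.86% lower and 4.45% higher. The lower ones were Ubash3a (-1.67), Malt1 (-1.55), Ubash3b (-1.54), Rasgrp1 (-0.997), Fyn (-0.94), Dgka (-0.83) and Cblb (-0.77). Tec (1.36), Lcp2 (0.81), Cd6 (0.80) and Dgkz (0.63) were higher. Malt1 had the smallest adjusted p (limma), 0.00248, and its call held with each array left out in turn. The call of every other gene named in this paragraph was lost without at least 1 array. That of Ubash3b was lost without any 1 of 7 arrays, and those of Ubash3a, Tec and Dgkz without any 1 of 6. The count of 11 dropped without any CD4+ TEM, CD8+ TEM or naïve CD4+ array, and so did the number of all genes called.

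**Figure D4:**
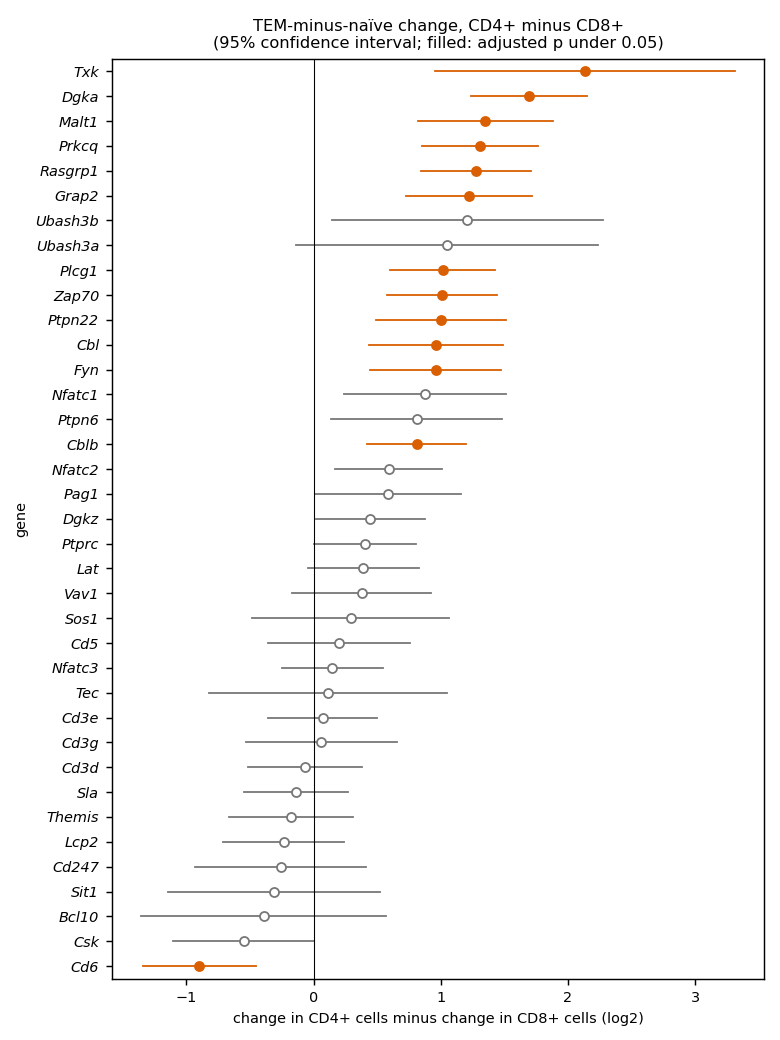
Change in CD4+ cells minus change in CD8+ cells (TEM minus naïve, log2) for each TCR signalling gene, with 95% confidence intervals from the fit and filled points where the difference was called. Txk (2.13) stands at the top with a wide interval and Cd6 (-0.90) is the 1 called gene below 0.

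The CD4+ memory cells share their naïve controls with the CD4+ TEM cells, so the values are given side by side. Of the 14 genes called lower in memory cells, Cd5 (-2.45, beside -1.68 in CD4+ TEM cells), Pag1 (-1.65, beside -1.83), Cd6 (-1.53, beside -1.72) and Ptpn6 (-1.37, beside -0.09) had the largest differences. Txk, which read low in CD4+ TEM cells, differed by 0.06 (SE 0.36, adjusted p = 0.936) in memory cells. Nfatc2 and Grap2 (0.54 (SE 0.15, adjusted p = 0.0352)) were the 2 called higher, and the Grap2 call was lost without any 1 of 7 arrays (adjusted p = 0.0569 to 0.18). Tested directly, CD4+ TEM cells were above CD4+ memory cells for Ptpn6, by 1.28 (SE 0.21, adjusted p = 0.0113), and for Cd5, by 0.76 (SE 0.17, adjusted p = 0.0426), against 3.89% of all genes called higher. None of the 37 was called lower by limma, against 1.64% of all genes, while 6 were lower and 5 higher at an unadjusted p under 0.05. The share of all genes at the unadjusted limit was not counted, so these 2 counts have no background beside them. For the 8262 genes at least as bright as the dimmest member, 4.72% were called higher and 2.3% lower. The Ptpn6 call was lost without either CD4+ TEM array (adjusted p = 0.0537 to 0.0691), and the Cd5 call without any 1 of 8 arrays (adjusted p = 0.0681 to 0.189).

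Other genes of the pathway were listed apart from the 38. Of 22 measured proximal genes, 3 were higher and 7 lower in CD4+ TEM cells, and 3 higher and 5 lower in CD8+ TEM cells. As shares these are 13.6% higher and 31.8% lower in CD4+ TEM, against 16.4% and 10.1% of all genes, and 13.6% higher and 22.7% lower in CD8+ TEM cells, against 20.9% and 17.2%. Rnf128 encodes GRAIL, a ubiquitin ligase known from unresponsive T cells. Rnf128 read 9.69 and 9.60 in CD4+ TEM, 7.99 and 7.42 in CD4+ memory, 4.10 and 4.52 in naïve CD4+, 9.33 and 9.48 in CD8+ TEM, and 4.67 and 4.40 in naïve CD8+ cells. It was far above the naïve level on every cultured array, by 5.34 (SE 0.23, adjusted p = 1.97e-06) in CD4+ TEM and 4.87 (SE 0.23, adjusted p = 2.63e-06) in CD8+ TEM cells, and the naïve level was at or below the array medians. Gab2, a scaffold adaptor, read 7.46 and 7.22 in CD4+ TEM, 6.71 and 8.34 in CD4+ memory, 3.34 and 3.12 in naïve CD4+, 7.55 and 7.47 in CD8+ TEM, and 3.33 and 2.88 in naïve CD8+ cells. It was higher by 4.11 (SE 0.45, adjusted p = 0.000293) in CD4+ TEM and by 4.41 (SE 0.45, adjusted p = 0.000121) in CD8+ TEM cells, again over a naïve level below the array medians. Dok1, an inhibitory adaptor, was higher as well (2.32 in CD4+ TEM and 1.61 in CD8+ TEM cells), and Fyb, the adaptor ADAP, was lower (-1.50 in CD4+ TEM and -1.75 in CD8+ TEM cells).

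On the calcium, Ras and NF-kB arms, 5 of 23 measured genes were higher and 5 lower in CD4+ TEM cells, and 4 higher and 5 lower in CD8+ TEM cells. These shares lie near those of all genes in CD8+ TEM cells (17.4% higher against 20.9%, 21.7% lower against 17.2%) and above them in CD4+ TEM cells (21.7% in each direction, against 16.4% higher and 10.1% lower). Rasgrp2, an exchange factor for the GTPase Rap, had the largest fall. Rasgrp2 read 4.82 and 4.61 in CD4+ TEM, 6.73 and 6.62 in CD4+ memory, 9.23 and 9.27 in naïve CD4+, 4.74 and 4.65 in CD8+ TEM, and 10.60 and 10.60 in naïve CD8+ cells. No TEM array was above 4.82 and no naïve array below 9.23, a difference of -4.54 (SE 0.13, adjusted p = 4.97e-07) in CD4+ and -5.90 (SE 0.13, adjusted p = 1.55e-07) in CD8+ cells. The TEM levels lay near the array medians, so these falls have no exact size, and the memory arrays lay between CD4+ TEM and naïve CD4+ cells. Itpr2, a calcium channel of internal stores, fell (-1.53 in CD4+ TEM and -2.44 in CD8+ TEM cells), as did Ikbkb, a kinase of the NF-kB arm (-0.97 in CD4+ TEM and -2.26 in CD8+ TEM cells). Itpr3, of the same channel family as Itpr2, fell in CD8+ TEM cells (-2.23) and differed by -0.22 in CD4+ TEM cells, where it was not called.

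Of 14 immediate early genes, which TCR signals and cell handling both induce, 7 were lower and 1 higher in CD4+ TEM cells, and 4 lower and 1 higher in CD8+ TEM cells. As shares, 50% were lower in CD4+ TEM and 28.6% in CD8+ TEM cells, against 10.1% and 17.2% of all genes, and 7.14% were higher in each, against 16.4% and 20.9%. The largest called differences were those of Fos (-8.18 in CD4+ TEM and -5.65 in CD8+ TEM cells), Fosb (-5.42 in CD4+ TEM cells), Nr4a1 (-4.53 in CD4+ TEM cells) and Atf3. Fosb and Nr4a1 were not called in CD8+ TEM cells (-4.04 (SE 1.68, adjusted p = 0.0983) and -3.66 (SE 1.34, adjusted p = 0.0656)), and the TEM levels lay near the array medians for Fos and below them for Fosb and Nr4a1. Egr1 read 10.37 and 10.66 in CD4+ TEM, 9.31 and 9.44 in CD4+ memory, 12.76 and 12.82 in naïve CD4+, 9.20 and 8.98 in CD8+ TEM, and 12.84 and 11.81 in naïve CD8+ cells, and Egr1 was lower in both, with differences of -2.27 (SE 0.30, adjusted p = 0.000819) in CD4+ and -3.23 (SE 0.30, adjusted p = 7.4e-05) in CD8+ TEM cells. Atf3 was the gene that rose, by 4.29 (SE 0.62, adjusted p = 0.00135) in CD4+ TEM and 3.76 (SE 0.62, adjusted p = 0.00164) in CD8+ TEM cells, over a naïve CD4+ level below the array medians. Fos had an SE of 1.56, since the naïve CD8+ arrays were far apart. Genes of the B cell receptor pathway, the counterpart of these genes in B cells, were called higher in part: 4 of 9 measured (44.4%) in each TEM group, namely Plcg2, Pik3ap1, Blnk and Cd79b, against 16.4% of all genes in CD4+ TEM and 20.9% in CD8+ TEM cells, and 6 in memory cells, with 5 of 9 not called in either TEM group. Of the 9, 4 are also among the 13 B cell markers. Their summed level on the linear scale was 1493 to 1797 in CD4+ TEM, 1118 to 1522 in CD4+ memory, 132.6 to 156.4 in naïve CD4+, 1897 to 1992 in CD8+ TEM and 396.3 to 772.3 in naïve CD8+ cells. Cd79b, which encodes a chain of the B cell receptor, read 8.77 and 8.41 in CD4+ TEM, 8.89 and 8.59 in CD4+ memory, 4.05 and 4.64 in naïve CD4+, 9.60 and 9.58 in CD8+ TEM, and 7.88 and 8.75 in naïve CD8+ cells. The part of B cell RNA in the values of the TCR signalling genes was not tested.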

How the data were processed

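RNA of FACS-sorted mouse T cells was hybridised to Affymetrix whole-genome mouse arrays, 10 in all and 2 for each of 5 groups. The authors ran RMA with BRB-ArrayTools (version not given in the sources used here), and the deposited table holds log2 values from 1.68 to 14.86, which were used as they are. RMA makes the arrays alike in distribution, so a change shared by most genes would not be seen, and the number of arrays limits the precision. Groups come from the sample titles. Entries of the records that name germinal center B cells, a Foxo1 status and a lymphoma line do not match T cells and were set aside.

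Of 45101 probe sets, 64 are controls, 34945 have 1 gene symbol in the platform annotation, 932 have several and 9160 are unnamed here; symbols of 34741 were updated through Entrez identifiers to GRCm38.p6 and 204 kept. The brightest probe set of a gene, by mean over the arrays, stood for it, which gave 18193 genes. A group-means model over all 10 arrays was fitted with limma 3.58.1 in R 4.3.3 (statmod 1.5.0), with moderated variances (eBayes), and p-values, two-sided, were adjusted by Benjamini-Hochberg across all genes. Levels are single arrays, errors of differences are standard errors of the fit, and the script was tested on simulated data. Figures used matplotlib 3.10.9.

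The 38 genes, the other lists and the tests were chosen with earlier results of these data known. Every array is given for each gene called in at least 1 of 7 comparisons with a difference of at least 1, which 26 genes met, and of each other list of TCR pathway or immediate early genes up to 4 called genes of largest change against naïve cells in TEM cells are named, some by their differences alone. Cd3e, Egr1, Cd4, Cd8a and the B cell genes were shown beyond this rule, after their values were seen. Alternatives were a replicate block, the mean of a gene's probe sets, probe sets not marked _x_at or _s_at, a mean of at least 6 in 1 group, a variation filter at p of 0.01, a trended robust prior, a fit of the compared groups only, repeated quantile normalisation and leaving out each array. Protein sequences were not used here.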

Additional observations from a re-analysis of the deposited data

Results flagged for a closer look

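In 13 genes the test of the difference between subsets itself (the CD4+ TEM change minus the CD8+ TEM change, limma) was called, which marks them for a closer look. The CD8+ difference was the more negative for the kinases Txk (2.13), Prkcq (1.31), Zap70 (1.01) and Fyn (0.96), for Malt1 (1.35), Rasgrp1 (1.27), Grap2 (1.22) and Plcg1 (1.01), and for the negative regulators Dgka (1.69), Ptpn22 (0.999), Cbl (0.96) and Cblb (0.81). The CD4+ fall was the larger for Cd6 (-0.90). The calls of Dgka, Malt1, Prkcq, Rasgrp1 and Grap2 held with each array left out in turn, but with the mean of probe sets those of Rasgrp1 (0.72, adjusted p = 0.0783) and Grap2 (adjusted p = 0.0526) were lost, and with the variation filter likewise (0.77, adjusted p = 0.21 for Rasgrp1 and 0.65, adjusted p = 0.453 for Grap2). Those of the other 8 were lost without at least 1 array, for Zap70 without CD8+ TEM replicate 1 (adjusted p = 0.0599), for Plcg1 without CD8+ TEM replicate 2 (adjusted p = 0.0543), and for Fyn, Txk, Ptpn22, Cd6, Cblb and Cbl without any of 6 or 7 arrays (adjusted p = 0.0511 to 0.111). For Zap70 the difference rests on a probe set marked as cross-hybridising and was 0.02 with the brightest unmarked one. With the mean of probe sets Plcg1 gave 0.27 (adjusted p = 0.628), Cbl 0.080 (adjusted p = 0.892) and Cblb lost its call (adjusted p = 0.0517), and with the variation filter Plcg1 gave 0.034 (adjusted p = 0.98) and the calls of Fyn (adjusted p = 0.0505) and Cblb (adjusted p = 0.244) were lost. The Txk value rests on a CD8+ TEM level below the array medians. The naïve CD8+ arrays, 1 of which stood apart, enter all 13 values.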

How the results depend on the processing

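The counts of called genes in CD4+ TEM (21), CD8+ TEM (30) and CD4+ memory cells (16) against naïve cells stayed within 1.5 times under all alternatives, with 14 to 23, 27 to 30 and 11 to 18 on leaving out 1 array. The difference between the changes gave 13 genes, 7 with the variation filter, which leaves 27 of the 37 genes, and 6 to 14 on leaving out 1 array. CD4+ TEM against CD4+ memory cells gave 2 genes, 1 with the replicate block, 1 with the variation filter, 1 with repeated quantile normalisation, 4 with the mean of probe sets, 6 with the trended robust prior, 0 when only these groups were fitted (limma, 10 at an unadjusted p under 0.05), and 0 to 3 on leaving out 1 array, with 0 without CD4+ TEM replicate 1 (7 unadjusted). Naïve CD8+ against naïve CD4+ cells gave 12 genes, 7 when only these groups were fitted, and 6 to 12 on leaving out 1 array. CD8+ TEM against CD4+ TEM cells gave 11 genes, and 1 to 13 on leaving out 1 array. An arm left with 1 array was assumed to vary like the other groups. Shares of all genes at an unadjusted p under 0.05 were not counted.

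Of the single differences called, 1616 alternative values kept their direction and their call, 250 kept the direction and lost the call, and 7 changed sign. With the variation filter, which takes another probe set, Sla was 0.087 in CD8+ TEM and 1.14 in CD4+ memory cells, Grap2 was -0.54 in CD4+ memory cells, and Plcg1 was -0.43 in naïve CD8+ against naïve CD4+ cells. With the mean of probe sets, naïve CD8+ against naïve CD4+ cells gave Lcp2 -0.15, Plcg1 -0.090 and Cbl -0.029. Calls against naïve cells were also lost with the mean of probe sets for Vav1 in CD4+ TEM and Cbl in CD8+ TEM cells, with the variation filter for Plcg1 in CD8+ TEM and Vav1 in both TEM groups, and with only the compared groups fitted for Txk, Vav1 and Cblb in CD4+ TEM, Ubash3a and Ubash3b in CD8+ TEM and Lat, Lcp2, Sit1, Dgka and Grap2 in memory cells. Same-numbered arrays did not deviate together (correlations of -0.036 to 0.029). This cannot tell whether they came from the same mice or cultures. The replicate block gave 20 genes in CD4+ TEM, 30 in CD8+ TEM and 15 in memory cells. Whether probe sets of a gene differ by transcript or by cross-hybridisation was not tested.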
